A study of Mus musculus with 12 samples.

Results

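The acyl-CoA thioesterases encoded by the Acot genes were examined across 12 expression arrays of mouse brown adipose tissue. The family was taken as 10 genes, Acot1 to Acot8, Acot11 and Acot13, and a gene was read from a probe set (the group of array probes summarised to 1 value) whose only gene symbol on the platform is that gene. For 9 of the 10 genes, out of 22180 genes named in this way, such a probe set was found; Acot8, a peroxisomal thioesterase, had none and was not analysed here. Acot4 had several, and the one with the highest mean over the 12 arrays was used. The genes were chosen by name and the probe set of Acot4 was selected on that mean level, which is not tested here.

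Acyl-CoA thioesterases cleave activated fatty acids back to free fatty acid and coenzyme A, and thereby run against the acyl-CoA synthetases. The enzymes are spread over the cytosol, the mitochondrial matrix and the peroxisome, where they set how much acyl-CoA, free fatty acid and free coenzyme A each compartment holds. In brown fat, free fatty acids both fuel and activate the uncoupling protein Ucp1, and peroxisome proliferator-activated receptors (PPARs), which bind fatty acids, are known regulators of several Acot genes.

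The mice were on the C57BL/6J background. Controls were Sel1L f/f littermates without Cre, labelled wildtype, and knockouts were Sel1L f/f mice carrying Adiponectin-Cre, which deletes Sel1L, an adaptor of endoplasmic reticulum-associated degradation, in white as well as brown adipocytes and not in the other cells of the tissue. Every mouse had fasted 5 h, either in the cold at 4 °C or at room temperature, with 3 arrays in each of the 4 groups; the sources used here give no ages. The labels speak of brown adipose tissue and the design text of brown adipocytes, so fewer cells of a type and less RNA per cell cannot be told apart. The temperature labels of control replicate 3 at room temperature conflict, since its source name gives 4 °C while its title does not. The title was followed. The room temperature controls, this array among them, read at most 8.17 for Ppargc1a and 2.79 for Fgf21, genes raised by cold. The cold controls read at least 10.94 and 6.35. Which label is right was not tested. Moving this array to the 4 °C group left 0 of 23521 probe sets called by limma for cold in the controls, where otherwise 2606 were called.

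All values are log2 expression, so a difference of 1 is a doubling. The brown adipocyte genes Ucp1 (12.38 to 12.83) and Cidea (11.59 to 11.89) were high on every array, and the array medians lay between 2.03 and 2.09. For Sel1l, the targeted gene, the room temperature arrays gave 7.37, 6.96 and 7.23 for controls and 6.18, 6.09 and 5.92 for knockouts (difference -1.12 ± 0.14, standard error of the model, n = 3 per group, limma adjusted p = 0.00114). The cold controls gave 6.99, 6.69 and 7.04 and the cold knockouts 6.90, 6.73 and 6.54 (-0.19 ± 0.14, adjusted p = 0.605), so this gene is no check of genotype in the cold, and knockouts there are the arrays labelled so. The muscle score of an array, the mean of 19 skeletal muscle markers, ran from 5.64 to 6.56 in the controls and 2.56 to 5.63 in the knockouts at room temperature, and from 4.30 to 7.19 and 2.25 to 5.84 at 4 °C.

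Of the measured genes, 6 lie side by side on chromosome 12 in the order Acot2, Acot1, Acot4, Acot3, Acot5 and Acot6, with no other protein-coding gene between them in RefSeq (GRCm38.p6). Acot7 and Acot11 are on chromosome 4 and Acot13 is on chromosome 13. The neighbours encode closely related enzymes, and whether probes of one read RNA of another was not tested, since probe positions were not used here. The promoter table used here, taken from RefSeq, held 7 of the 9 genes, all but Acot6 and Acot13. The promoters of 4 neighbours are shown. Acot1, Acot2 and Acot5 had called differences and Acot4 had none, as given further on. Each runs 5′ to 3′ from 250 bases before to 20 bases after the transcription start on the plus strand of GRCm38.p6, at chr12:83987611-83987880 for Acot2, chr12:84009252-84009521 for Acot1, chr12:84038129-84038398 for Acot4 and chr12:84069074-84069343 for Acot5. Capitals mark matches of 2 motifs, or of their reverse complements where a match lies on the other strand. The first motif is AGGTCA, the half-site of PPARs and other nuclear receptors. The other is the half-site of cAMP response factors, which reads TGACG.
Acot2: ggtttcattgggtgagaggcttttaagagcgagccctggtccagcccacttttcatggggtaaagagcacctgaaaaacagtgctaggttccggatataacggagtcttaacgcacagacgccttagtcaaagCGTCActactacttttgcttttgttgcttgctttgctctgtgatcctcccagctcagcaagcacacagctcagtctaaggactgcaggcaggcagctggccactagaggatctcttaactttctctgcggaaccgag
Acot1: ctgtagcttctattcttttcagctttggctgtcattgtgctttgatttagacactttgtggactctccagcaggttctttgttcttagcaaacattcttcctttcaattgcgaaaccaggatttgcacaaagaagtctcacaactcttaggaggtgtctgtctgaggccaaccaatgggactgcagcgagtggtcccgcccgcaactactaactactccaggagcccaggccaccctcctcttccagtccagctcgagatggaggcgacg
Acot4: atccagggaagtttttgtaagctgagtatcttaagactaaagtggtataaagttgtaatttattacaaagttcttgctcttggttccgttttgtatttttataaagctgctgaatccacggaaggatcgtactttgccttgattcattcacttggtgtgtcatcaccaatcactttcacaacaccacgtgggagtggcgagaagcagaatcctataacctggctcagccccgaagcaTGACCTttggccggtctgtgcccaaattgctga
Acot5: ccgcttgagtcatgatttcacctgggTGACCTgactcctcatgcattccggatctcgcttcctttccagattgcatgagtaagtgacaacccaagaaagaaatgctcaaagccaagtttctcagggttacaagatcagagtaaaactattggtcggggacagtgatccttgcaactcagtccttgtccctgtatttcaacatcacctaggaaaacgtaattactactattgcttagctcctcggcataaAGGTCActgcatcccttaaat
Over the full 300 bases of the table, AGGTCA occurred in the promoters of 3 of the 7 genes, Acot3, Acot4 and Acot5, against 16.3% of 32851 promoters in RefSeq. In Acot5 it lay at positions -224 and -1 and in Acot4 at -13, counted to the leftmost base from the start. TGACG occurred in 1 of the 7, Acot2, at -117, against 20.8% of all promoters. The direct repeat of AGGTCA with 1 base between, known as DR1 and found in 0.0396% of all promoters, was in none of these 7 windows, nor were TGACGTG, an element of the unfolded protein response (2.01%), and TGATGCAAT, a composite site of ATF4 and C/EBP factors (0.192%). The CCAAT box, CCAAT, was in 6 of the 7 and in 37.4% of all promoters, and the TATA box, TATAAA, in 1 of the 7 and in 13.6%. All motifs were searched on both strands; each TGACGTG holds a TGACG. A gene was counted if any of its promoters held the motif, and Acot3, Acot5 and Acot11 have 2 each. The shares are of single promoters, 32851 from 27025 genes, so counts and shares are in unlike units. These matches are descriptions of letters, not of binding.

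In the knockouts the cytosolic Acot1 was lower and the peroxisomal Acot6 higher at both temperatures, and at 4 °C the mitochondrial Acot2 was higher and Acot11 lower as well. At room temperature 1 of 9 genes was called higher and 1 lower (limma, Benjamini-Hochberg adjusted p under 0.05 over 23521 probe sets), where 1.29% and 0.429% of all probe sets were called, 1.72% in either direction. At 4 °C 2 were called higher and 2 lower, against 3.61% and 2.19% of all probe sets, 5.80% in either direction. Knockouts lay wholly above the controls for 2 genes and wholly below for 2 at room temperature, as 8.76% and 8.62% of all probe sets did. At 4 °C this held for 3 and 2 genes, and for 11.2% and 10.7% of all probe sets. The median of the 9 differences was -0.14 at room temperature and -0.01 at 4 °C, and that of all probe sets was -0.01 at both. The members thus did not move one way.

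**Figure D1:**
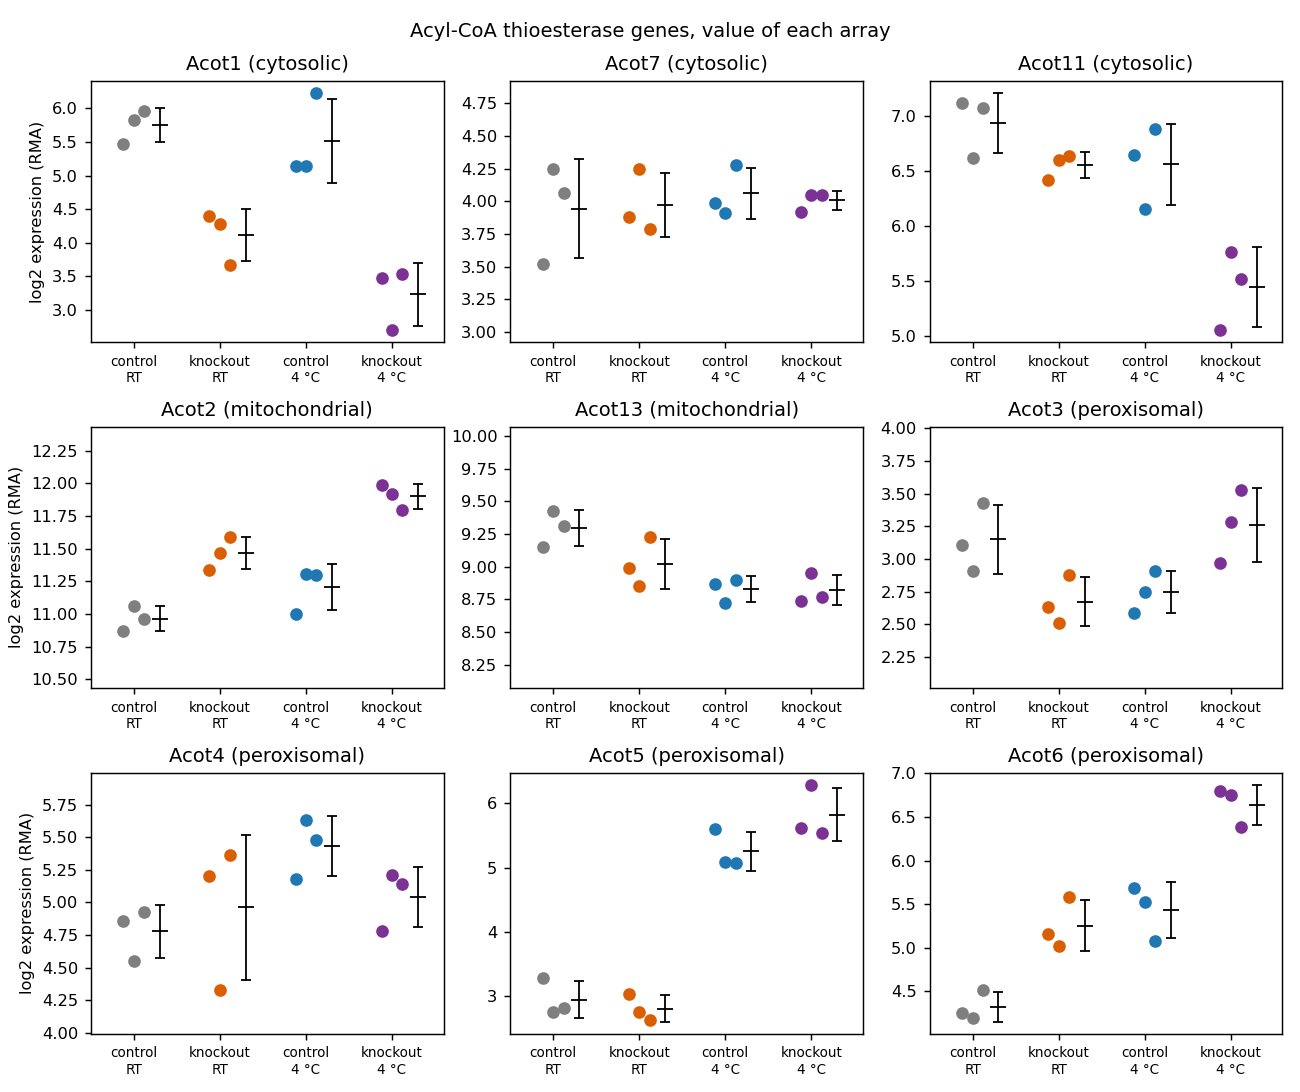
Log2 expression of the 9 measured Acot genes on each of the 12 arrays (points, replicates 1 to 3 from left to right), with the mean and SD of each group of 3 as a bar; each panel has its own scale, spanning at least 2 log2 units. The knockout arrays lie below all controls of the same temperature for Acot1 and above them for Acot2 and Acot6, and both 4 °C groups lie above both room temperature groups for Acot5.

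Acot1, the cytosolic thioesterase of long-chain acyl-CoA, stood at 5.47, 5.83 and 5.96 in room temperature controls and at 4.40, 4.28 and 3.67 in room temperature knockouts. The cold controls stood at 5.15, 5.15 and 6.23 and the cold knockouts at 3.47, 2.70 and 3.54. The highest knockout lay below the lowest control at both temperatures. It was 3.10-fold lower in the knockouts at room temperature (-1.63 ± 0.31, adjusted p = 0.0184) and 4.83-fold lower at 4 °C (-2.27 ± 0.31, adjusted p = 0.000614). Dropping control replicate 2 (adjusted p = 0.0707) or 3 (0.0706) or knockout replicate 3 (0.0771) ended the room temperature call, as did the fit with the array of conflicting label moved to 4 °C (0.0983). The call at 4 °C was kept whichever single array was dropped (adjusted p up to 0.00365). The cold knockout readings of Acot1, 2.70 to 3.54, are not far above the array medians.

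Cold alone did not give a called difference of Acot1 in the controls (-0.24 ± 0.31, 95% interval -0.91 to 0.43, adjusted p = 0.737) or the knockouts (-0.88 ± 0.31, -1.55 to -0.21, adjusted p = 0.111), although the knockout ranges at the 2 temperatures did not overlap. The group means ran from 5.75 and 5.51 in the controls without and with cold, whose ranges overlapped, through 4.12 in the knockouts at room temperature to 3.24 at 4 °C.

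The skeletal muscle markers, 19 of 19 measured and 0 called in either genotype comparison by limma (10 at room temperature and 0 at 4 °C with an unadjusted p under 0.05), had a median difference of -2.27 at room temperature and -0.98 at 4 °C. Adding the muscle score to the model, the difference of Acot1 was -1.43 at room temperature (adjusted p = 0.128) and -2.18 at 4 °C (adjusted p = 0.00157). At room temperature the array with the highest muscle score had the highest Acot1 in the controls (6.56 and 5.96) and in the knockouts (5.63 and 4.40). Among the knockouts at 4 °C the array with the highest muscle score, 5.84, had the lowest Acot1, 2.70. In the controls at 4 °C the array with the highest score, 7.19, had the highest Acot1, 6.23. A cause of the difference of Acot1 was not tested.

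**Figure D2:**
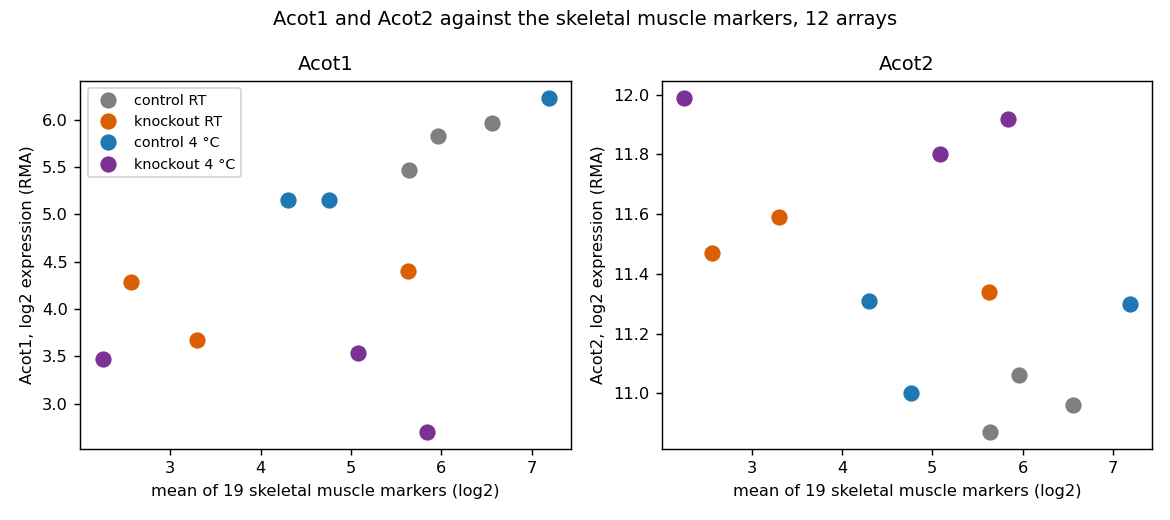
Log2 expression of Acot1 (left) and Acot2 (right) on the y axis against the mean log2 level of 19 skeletal muscle markers on the x axis, 1 point per array, coloured by group. Acot1 ranges from 2.70 to 4.40 on the knockout arrays and from 5.15 to 6.23 on the control arrays, and muscle scores from 2.25 to 5.84 and from 4.30 to 7.19.

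Acot2, the enzyme of the mitochondrial matrix and the direct neighbour of Acot1, went the opposite way on the same arrays. Room temperature controls had 10.87, 11.06 and 10.96 and knockouts 11.34, 11.47 and 11.59. Cold controls had 11.00, 11.31 and 11.30 and cold knockouts 11.99, 11.92 and 11.80. All knockouts lay above all controls at either temperature. It was 1.62-fold higher in the knockouts at 4 °C (0.70 ± 0.12, adjusted p = 0.00299), a call that no single array decided (adjusted p up to 0.0173).

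The difference of Acot2 at room temperature, 0.50 ± 0.12 (95% interval 0.25 to 0.76), missed the threshold with an adjusted p of 0.0521. It passed with a trend and robust variance (0.0102) and with dim probe sets left out (0.0473). The adjusted p was 0.111 with only the arrays compared, 0.191 with the array of conflicting label moved, 0.246 with the muscle score and up to 0.176 with single arrays dropped. Cold raised Acot2 in the knockouts by 0.44 ± 0.12 (adjusted p = 0.0369), a call that held when room temperature replicate 3 was dropped but with none of the other 5 arrays dropped (up to 0.128, for the first 4 °C replicate). It was also lost with only the arrays compared (0.0538), with all probe sets tested (0.0658) and with the array of conflicting label moved (0.0816). The controls differed by 0.24 ± 0.12 between temperatures (adjusted p = 0.243).

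Acot6, a peroxisomal member, was higher with knockout and with cold. At room temperature the controls measured 4.25, 4.20 and 4.52 against 5.16, 5.02 and 5.58 for knockouts. In the cold the controls measured 5.69, 5.53 and 5.08 against 6.80, 6.75 and 6.38 for knockouts. The knockouts at room temperature overlapped the controls at 4 °C, with means of 5.25 and 5.43, between the controls at room temperature (4.32) and the knockouts at 4 °C (6.64). Against the controls it was 1.90-fold higher at room temperature (0.93 ± 0.19, adjusted p = 0.0256) and 2.31-fold at 4 °C (1.21 ± 0.19, adjusted p = 0.00172).

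The room temperature call of Acot6 did not survive dropping control replicate 1 (adjusted p = 0.0928) or 2 (0.101) or knockout replicate 1 (0.0559) or 3 (0.101). It was also lost with only the 6 arrays compared (0.0506), with all probe sets tested (0.0601), with the array of conflicting label moved to 4 °C (0.189) and with the muscle score in the model (0.78, adjusted p = 0.189). Its call at 4 °C held with each single array dropped (adjusted p up to 0.0118) and with the muscle score (1.14, adjusted p = 0.00421).

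Acot11, also called Them1 and first described as a brown fat inducible thioesterase, acts on long-chain acyl-CoA in the cytosol and near lipid droplets. Room temperature controls showed 7.12, 6.62 and 7.07 and knockouts 6.42, 6.60 and 6.64, with overlapping ranges (-0.38 ± 0.21, adjusted p = 0.499). Cold controls showed 6.65, 6.15 and 6.88 and cold knockouts 5.05, 5.76 and 5.52, all 3 below them. That was 2.17-fold lower (-1.11 ± 0.21, adjusted p = 0.00725). Cold lowered it 2.15-fold in the knockouts (-1.11 ± 0.21, adjusted p = 0.00625). In the controls the difference with cold was -0.37 ± 0.21 (95% interval -0.84 to 0.09, adjusted p = 0.341), an interval whose upper end is close to no change. Both calls held with each single array dropped (adjusted p up to 0.0353 and 0.0292). The same was true once the muscle score was added (adjusted p = 0.0114 and 0.00288).

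The remaining genes were not called between the genotypes. Acot5, a peroxisomal thioesterase of medium-chain acyl-CoA, differed by -0.14 ± 0.22 at room temperature and 0.57 ± 0.22 at 4 °C (95% interval 0.09 to 1.04, adjusted p = 0.192). Acot7, a cytosolic enzyme best known from brain, differed by 0.03 ± 0.18 (-0.36 to 0.43) and -0.05 ± 0.18 (-0.44 to 0.35), and all its 12 readings lay between 3.52 and 4.28. Acot13, or Them2, a small enzyme associated with mitochondria, differed by -0.27 ± 0.12 (-0.54 to 0.00) and -0.01 ± 0.12 (-0.28 to 0.26). Acot4, which cleaves succinyl-CoA and other dicarboxylic acyl-CoA in the peroxisome, differed by 0.19 ± 0.23 and -0.39 ± 0.23. Its dimmer probe set, with a mean of 3.16 over 12 arrays against 5.06, differed by -0.44 ± 0.24 and 0.14 ± 0.24, with the signs turned and likewise not called.

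Acot3, a peroxisomal thioesterase of long-chain acyl-CoA, changed its order between the temperatures. Its room temperature values were 3.11, 2.91 and 3.43 for controls against 2.63, 2.51 and 2.88 for knockouts. Its cold values were 2.59, 2.75 and 2.91 for controls against 2.97, 3.28 and 3.53 for knockouts. All knockouts lay below the controls at room temperature and above them at 4 °C, but neither difference was called (-0.48 ± 0.17, adjusted p = 0.227, and 0.51 ± 0.17, adjusted p = 0.123). The readings, 2.51 to 3.53, are not far above the array medians.

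Cold gave a higher Acot5 and Acot6, both peroxisomal, in each genotype. In the controls 2 of 9 genes were called higher at 4 °C and 1 lower, against 4.85% and 6.23% of all probe sets, 11.1% in either direction. In the knockouts 3 were called higher and 1 lower, against 4.32% and 4.70%, 9.03% in either direction. Cold arrays lay wholly above the others for 3 genes and wholly below for 1 in the controls, as 11.6% and 14.3% of all probe sets did, and for 4 and 2 genes in the knockouts, as 11.7% and 14.1% did. Acot5 went from 3.28, 2.75 and 2.82 on the room temperature control arrays to 5.60, 5.08 and 5.07 on the cold ones. On the knockout arrays it went from 3.04, 2.75 and 2.64 to 5.62, 6.29 and 5.54. The 6 cold arrays and the 6 room temperature arrays were separated by a gap from 3.28 to 5.07.

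Cold raised Acot5 4.92-fold in the controls (2.30 ± 0.22, adjusted p = 0.000101) and 8.04-fold in the knockouts (3.01 ± 0.22, adjusted p = 1.21e-05). Neither call rested on 1 array (adjusted p up to 0.000661 and 0.000145 with single arrays dropped). The room temperature readings are near the array medians, so the folds are lower estimates if those are background. The array of conflicting label read 2.82, among the other room temperature arrays; with it moved to 4 °C the difference in the controls was 1.63 and was not called (adjusted p = 0.215).

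Cold raised Acot6 2.16-fold in the controls (1.11 ± 0.19, adjusted p = 0.00266) and 2.62-fold in the knockouts (1.39 ± 0.19, adjusted p = 0.000781). Neither rested on 1 dropped array (adjusted p up to 0.0142 and 0.00563), and the call in the controls was lost with the array of conflicting label moved (0.148). Acot4 differed by 0.65 ± 0.23 in the controls (4.86, 4.55 and 4.93 against 5.18, 5.63 and 5.48, adjusted p = 0.105, or 0.0464 with only the arrays compared) and by 0.08 ± 0.23 in the knockouts. Its dimmer probe set differed by -0.26 ± 0.24 in the controls, with the sign turned, and by 0.33 ± 0.24 in the knockouts, neither called. Acot3 differed by -0.40 ± 0.17 and 0.59 ± 0.17 (adjusted p = 0.180 and 0.0519).

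Acot13 was the member lowered by cold in the controls. It fell from 9.15, 9.43 and 9.31 to 8.87, 8.72 and 8.90 (-0.46 ± 0.12, adjusted p = 0.0314). Dropping room temperature replicate 2 (adjusted p = 0.116) or 3 (0.0789), or cold replicate 1 (0.0695) or 2 (0.120), ended the call, and so did testing only the arrays compared (0.0598) or all probe sets (0.0597) or moving the array of conflicting label (0.378). Knockouts had 8.99, 8.85 and 9.23 against 8.74, 8.95 and 8.77 in the cold, with overlapping ranges (-0.20 ± 0.12, adjusted p = 0.424).

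**Figure D3:**
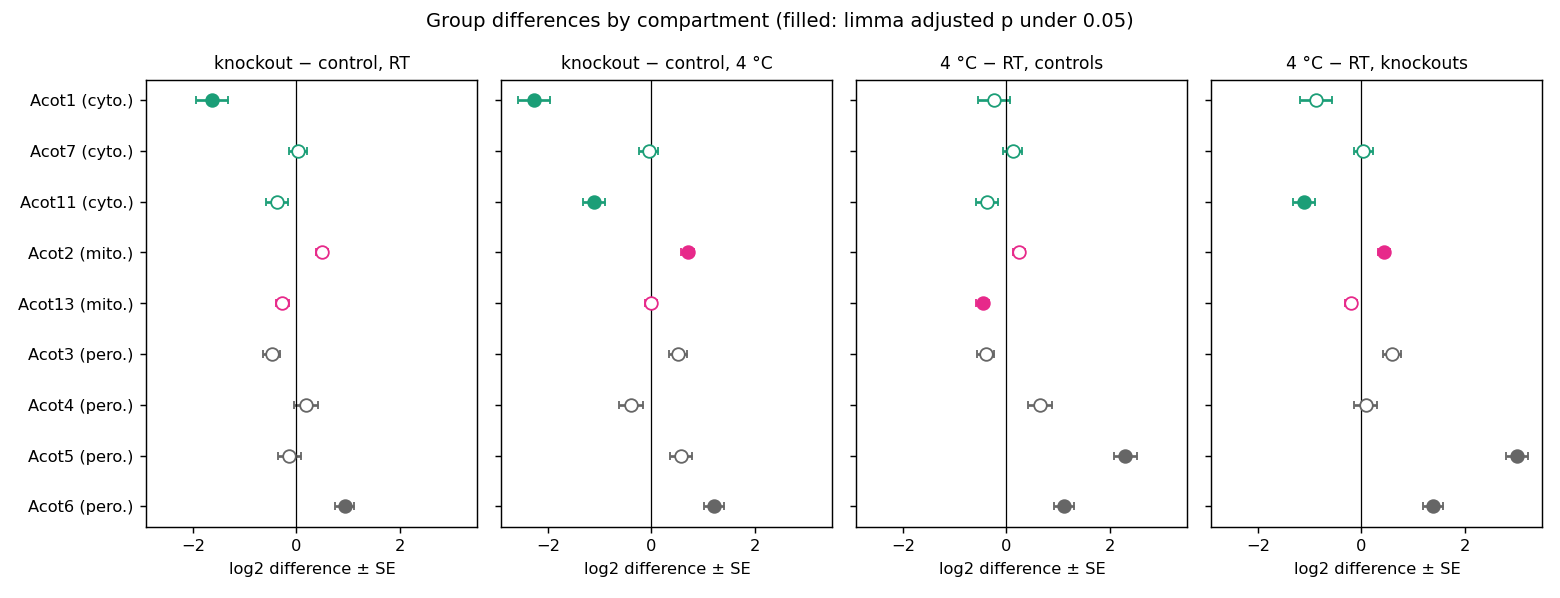
Log2 differences with standard errors for the 9 genes (rows, coloured by compartment) in the 4 comparisons of 2 groups; filled points have a limma adjusted p under 0.05. In the genotype comparisons the called cytosolic genes, Acot1 and Acot11, are lower and the called mitochondrial and peroxisomal genes, Acot2 and Acot6, are higher.

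By compartment, the cytosolic genes Acot1, Acot7 and Acot11 had 1 of 3 called lower at room temperature and 2 of 3 at 4 °C with knockout and 0 higher, with medians of -0.38 and -1.11. The mitochondrial genes Acot2 and Acot13 had 0 of 2 called at room temperature (1 with an unadjusted p under 0.05) and 1 of 2 higher at 4 °C, with medians of 0.12 and 0.34. The peroxisomal genes Acot3 to Acot6 had 1 of 4 called higher at each temperature and 0 lower, with medians of 0.02 and 0.54. With cold, 2 of the 4 peroxisomal genes were called higher in each genotype (medians 0.88 and 0.99). Of the 2 mitochondrial genes, 0 were called higher and 1 lower in the controls (median -0.11), and 1 higher and 0 lower in the knockouts (median 0.12). Of the 3 cytosolic genes, 0 were called in the controls by limma, 0 also with an unadjusted p under 0.05 (median -0.24), and in the knockouts 0 were called higher and 1, Acot11, lower (median -0.88). Of all probe sets 1.29% were called higher and 0.429% lower with knockout at room temperature, and 3.61% and 2.19% at 4 °C. By cold 4.85% were called higher and 6.23% lower in the controls, and 4.32% and 4.70% in the knockouts. Groups this small cannot be set against these shares. The placement follows the usual assignment; Acot7, Acot11 and Acot13 have also been placed elsewhere, and no compartment was tested against another.

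**Figure D4:**
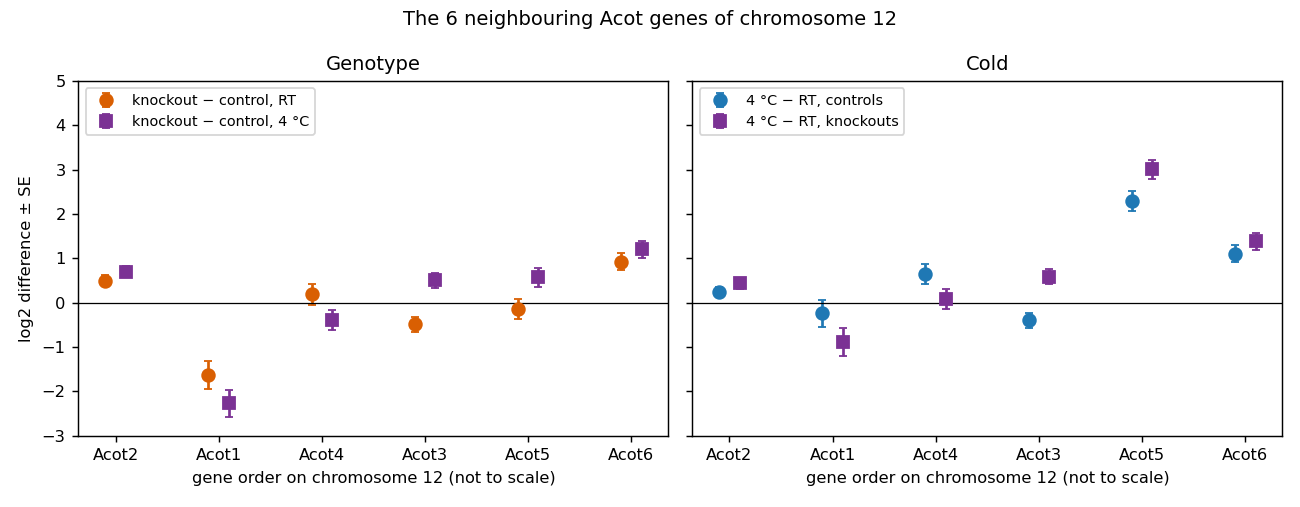
Log2 differences with standard errors for the 6 genes of chromosome 12 in their order on the chromosome (x axis, not to scale), by genotype (left) and by cold (right). Neighbours differ in sign and size, as Acot2 (0.70) and Acot1 (-2.27) do in the knockouts at 4 °C.

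The difference between the 2 genotype effects, which is also the difference between the 2 cold responses, was called for 0 of 9 genes by limma, against 0.230% of all probe sets higher and 0.0765% lower. With an unadjusted p under 0.05 there were 3, Acot3 (0.99 ± 0.24, adjusted p = 0.134), Acot5 (0.71 ± 0.31, adjusted p = 0.481) and Acot11 (-0.73 ± 0.30, adjusted p = 0.443). A call of Acot11 or Acot13 in 1 group and not in the other is therefore not a shown difference between those groups. The trend and robust setting also called 0.

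Averaged over both temperatures, a comparison added after the data were seen and resting on the same arrays, 2 genes were called higher with knockout, Acot2 (0.60 ± 0.08, adjusted p = 0.000593) and Acot6 (1.07 ± 0.13, adjusted p = 0.000253). Called lower were 2, Acot1 (-1.95 ± 0.22, adjusted p = 9.96e-05) and Acot11 (-0.75 ± 0.15, adjusted p = 0.00865), with 6 arrays a side. Of all probe sets 4.24% were called higher and 2.73% lower. None of these calls was lost with any 1 of the 12 arrays dropped, and that of Acot11 was lost with the muscle score in the model (adjusted p = 0.0803).

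The cold effect averaged over both genotypes was called higher for 3 genes, Acot5 (2.65 ± 0.16), Acot6 (1.25 ± 0.13) and Acot2 (0.34 ± 0.08), and lower for 2, Acot11 (-0.74 ± 0.15) and Acot13 (-0.33 ± 0.09). Of all probe sets 7.51% were called higher and 10.1% lower. The call of Acot13 was lost when knockout replicate 1 at 4 °C was dropped (adjusted p = 0.05), and those of Acot2 (0.0608) and Acot13 (0.187) when the array of conflicting label was moved.

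Over the 12 arrays, the genes whose pattern was most like that of a called member by Pearson's r were as follows, with all arrays sharing the same 4 groups. Acot2 was most like Srp72 (0.981), C9orf72 (0.967) and Tcea1 (0.966), and Acot1 was most like Foxn3 (0.952), Gys2 (0.948) and Atad3a (0.928). Acot5 was most like Slc20a1 (0.983), Plk2 (0.967) and Asl (0.966), and Acot6 was most like Pvr (0.973), Ism1 (0.967) and Abcf3 (0.967). Acot11 was most like Adck1 (0.961), Ucp3 (0.947) and Crat (0.946), and Acot13 was most like Slc25a48 (0.933), Mrpl2 (0.921) and Gdpd5 (0.917). With 22180 genes ranked, lists without a shared gene were likely, and they do not show that the patterns of the members differ. Acot2 and Acot6 correlated at 0.88 and Acot1 and Acot11 at 0.75, while Acot1 and Acot2 correlated at -0.87.

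The measured enzymes that make acyl-CoA, the long-, medium- and short-chain synthetases and fatty acid transport proteins, were mostly not called with knockout. Of 20 measured, 0 were called higher and 2 lower with knockout at room temperature, and 1 higher and 4 lower at 4 °C (2 to 3 lower when single arrays were left out), with medians of -0.13 and -0.22. The other 18 and 15 were not called. Among all probe sets 1.29% and 3.61% were called higher and 0.429% and 2.19% lower. Acsl1, Acsl3 and Acsm3 had no probe set of 1 symbol and were not measured. Acsl6, Acsm1, Acsm2, Acsm4, Acsbg1, Acsbg2, Slc27a3, Slc27a5 and Slc27a6 averaged 1.2 to 1.8 over the 12 arrays. Those means lie below the array medians, so the missing calls of these genes say little. Acss1, the mitochondrial acetyl-CoA synthetase, was lower at both (-1.02 ± 0.14 and -0.93 ± 0.14, adjusted p = 0.00249 and 0.00167). Acss3, another mitochondrial short-chain synthetase, was lower at 4 °C (-1.40 ± 0.19, adjusted p = 0.000502) and at room temperature (-0.93 ± 0.19, adjusted p = 0.0253), the latter lost without any of 3 arrays (up to 0.103). Acsl5, a long-chain synthetase, was lower at 4 °C (-1.62 ± 0.38, adjusted p = 0.0248), which was lost without any of 5 arrays (up to 0.105). Slc27a1, a fatty acid transport protein, fell with cold in both genotypes (-1.30 ± 0.26 and -1.23 ± 0.26, adjusted p = 0.00663 and 0.0102). Acsl4, which activates arachidonic acid, was higher at 4 °C (0.73 ± 0.13, adjusted p = 0.00392) and was raised by cold in both genotypes (0.70 ± 0.13 and 0.87 ± 0.13).

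Among 18 measured genes of coenzyme A synthesis, breakdown and acyl-CoA binding, 6 were called lower and 1 higher by cold in the controls, and 3 and 1 in the knockouts, with medians of -0.30 and -0.29. Of all probe sets 6.23% were called lower and 4.85% higher by cold in the controls, and 4.70% and 4.32% in the knockouts. With knockout 1 was called higher and 0 lower at room temperature, and 2 higher and 2 lower at 4 °C, with medians of -0.18 and -0.08. The shares of all probe sets called with knockout were 1.29% higher and 0.429% lower at room temperature, and 3.61% and 2.19% at 4 °C. Slc25a42, the carrier that brings coenzyme A into mitochondria, fell by 1.15 on the log2 scale in the controls (SE 0.15, adjusted p = 0.000719) and by 1.50 in the knockouts (SE 0.15, adjusted p = 0.000142). Ppcdc, an enzyme of coenzyme A synthesis, was lowered by cold in both (-0.96 ± 0.18 and -0.85 ± 0.18, adjusted p = 0.00418 and 0.00965). Pank1, a pantothenate kinase that starts that synthesis, was raised instead (0.67 ± 0.13 and 0.47 ± 0.13, adjusted p = 0.0052 and 0.0368), in the knockouts with a call lost without any of 5 arrays (up to 0.126). Nudt8, a mitochondrial hydrolase of coenzyme A, was lowered by cold in the controls (-0.69 ± 0.14, adjusted p = 0.00817). With knockout at 4 °C Nudt8 was higher (0.55 ± 0.14, adjusted p = 0.0439) and Slc25a42 (-0.73 ± 0.15, adjusted p = 0.0149) and Pank1 (-0.52 ± 0.13, adjusted p = 0.031) were lower, calls lost without any of 4, 3 and 5 arrays (up to 0.153, 0.0717 and 0.128). Acbd3, an acyl-CoA binding domain protein of the Golgi, was higher in the knockouts at room temperature (0.78 ± 0.12, adjusted p = 0.00544) and at 4 °C (0.93 ± 0.12, adjusted p = 0.000487). The first of these calls was lost with the muscle score in the model. With the array of conflicting label moved, every cold call of the pathway lists in the controls was lost. So were the cold calls of Slc27a1, Ppcdc and Pank1 in the knockouts. The knockout calls of Nudt8, Slc25a42 and Pank1 at 4 °C were lost as well, as was that of Acss3 at room temperature.

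Of 9 other acyl-CoA hydrolases, 0 were called with knockout at room temperature (0 also with an unadjusted p under 0.05) and 1 was called lower at 4 °C. That gene was fatty acid synthase, Fasn, whose thioesterase domain releases the finished chain (8.76 against 10.99, adjusted p = 0.0245), and its call was lost without any of 4 arrays (up to 0.0995, for knockout replicate 1). Over all probe sets, 1.72% were called in either direction with knockout at room temperature and 2.19% lower at 4 °C. Them5 (1.66), Baat (1.5) and Olah (1.28) averaged below the array medians, so their missing calls say little. Acot10, at 2.49, was not far above those medians. Them4, a mitochondrial thioesterase, was raised by cold in both genotypes, like Acot5 and Acot6 (1.22 ± 0.27 and 1.13 ± 0.27, adjusted p = 0.0107 and 0.0188). The call in the knockouts was lost without any of 3 arrays (up to 0.0796, for the first cold replicate), and both were lost with the array of conflicting label moved.

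Among 7 genes of the carnitine shuttle and its acyltransferases, 0 were called with knockout at room temperature (limma; 4 with an unadjusted p under 0.05) and 2 were lower at 4 °C. They were carnitine acetyltransferase, Crat (-0.65 ± 0.10, adjusted p = 0.00102), and the carnitine transporter Slc22a5 (-0.74 ± 0.14, adjusted p = 0.00554). Over all probe sets, 1.72% were called in either direction with knockout at room temperature and 2.19% lower at 4 °C. Crot, the peroxisomal carnitine octanoyltransferase, was lowered by cold in the controls (-1.67 ± 0.27, adjusted p = 0.00213), where Acot5 was raised. In the knockouts Crot differed by -0.97 ± 0.27 (adjusted p = 0.0447), a call lost without any of 5 arrays (up to 0.173, for room temperature replicate 2). That call was also lost with the array of conflicting label moved.

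PPAR target genes were mostly not called with knockout. Of 25 measured, 2 were higher and 0 lower with knockout at room temperature, and 1 higher and 4 lower at 4 °C (2 to 5 lower when single arrays were left out), with medians of -0.11 and -0.18. Both calls at room temperature were lost with the array of conflicting label moved or with only the 6 arrays compared. The shares of all probe sets called with knockout were 1.29% higher and 0.429% lower at room temperature, and 3.61% and 2.19% at 4 °C. Fgf21, a hormone that PPARs and the integrated stress response induce, was higher with knockout at room temperature (3.79 against 2.16, adjusted p = 0.034) and at 4 °C (8.06 against 6.51, adjusted p = 0.0197). Those calls were lost without any of 4 and of 5 arrays (up to 0.129 and 0.0816). The call of Fgf21 at 4 °C was also lost with the array of conflicting label moved.

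Cold raised Fgf21 in the controls (4.35 ± 0.35, adjusted p = 3.1e-05) and the knockouts (4.27 ± 0.35, adjusted p = 3.24e-05), as it did Acot5 and Acot6. Plin2, a lipid droplet coat protein, was raised by cold in the controls (1.31 ± 0.12, adjusted p = 7.01e-05) and the knockouts (0.49 ± 0.12, adjusted p = 0.0206), and by knockout at room temperature (0.65 ± 0.12, adjusted p = 0.0141). The latter 2 calls were lost without any of 4 and of 2 arrays (up to 0.0841 and 0.0594), and both with the array of conflicting label moved. Ucp3, a homologue of Ucp1, fell like Acot11 with knockout at 4 °C (-1.47 ± 0.27, adjusted p = 0.00532) and with cold in the knockouts (-1.76 ± 0.27, adjusted p = 0.00151). Plin5, another lipid droplet protein, fell in the same comparisons (-0.86 ± 0.20 and -1.26 ± 0.20, adjusted p = 0.0217 and 0.00182), the first lost without any of 3 arrays (up to 0.0939). Pdk4, an inhibitor of pyruvate oxidation, rose with cold in the controls (0.46 ± 0.12, adjusted p = 0.0281), a call lost without any of 3 arrays (up to 0.114).

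Of 13 PPARs, partners and coactivators, 0 were called with knockout at room temperature by limma (1 with an unadjusted p under 0.05) and 6 were lower at 4 °C, with a median of -0.55 (3 to 7 lower when single arrays were left out). Over all probe sets, 1.72% were called in either direction with knockout at room temperature and 2.19% lower at 4 °C. Ppara itself averaged 6.89 in the controls and 5.40 in the knockouts at 4 °C (adjusted p = 0.000165), where Acot1 and Acot11 were lower and Acot2 and Acot6 higher. Pparg, the main PPAR of fat cells, was lower there (-0.78 ± 0.16, adjusted p = 0.0144, lost without any of 3 arrays, up to 0.0689), as were the coactivator Ppargc1a (-1.42 ± 0.25, adjusted p = 0.00473) and the orphan receptor Esrrg (-0.82 ± 0.15, adjusted p = 0.00571). Ppargc1a was raised by cold in the controls (3.41 ± 0.25, adjusted p = 2.09e-05) and the knockouts (1.85 ± 0.25, adjusted p = 0.00082); with the array of conflicting label moved its 3 calls were lost. Ppara fell with cold in the knockouts by 1.90 (SE 0.17, adjusted p = 7.53e-05), and the difference between the cold responses was -1.64 ± 0.25 (adjusted p = 0.0188), a call lost without any of 5 of the 12 arrays (up to 0.0793).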

How the data were processed

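The deposited table holds log2 expression values of 12 arrays, 1 per sample, for 41345 probe sets. They were made with RMA, per the submitters' processing notes, which name no other tool and give RMA without a version. RMA corrects background, quantile-normalizes arrays and summarises probes on the log2 scale. RMA understates differences near background and near saturation. Columns were matched by sample identifier.

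Gene names came from the platform annotation: 23521 probe sets have 1 symbol, 1814 several and 16010 none. The former were tested in R 4.3.3 with limma 3.58.1 (1 mean per group over all 12 arrays, eBayes, 8 residual degrees of freedom, a prior of 4.45). An adjusted p under 0.05 (Benjamini-Hochberg over all probe sets tested) was called. Adjusted p-values are limma's, ± is the model's standard error, differences subtract the control or the room temperature group, and n is 3 per group. The fit was tested on simulated data. The rule named all members and, from each pathway list, the genes called in any of 5 contrasts, at most the 6 with the largest differences; most of these are given. For each called member it also named the 3 most similar genes. Members and lists were chosen with earlier results of these data known. The number of arrays limits the precision, and p-values measure only the spread between these samples. Alternatives covered the samples, covariates, variance model, scaling, filters and probe set choice, and each array left out in turn. Promoters are RefSeq's (GRCm38.p6).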

Additional observations from a re-analysis of the deposited data

Results flagged for a closer look

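Acot3 was the 1 member whose knockout arrays all lay below the controls at room temperature and all above them at 4 °C. The difference between the 2 genotype effects was 0.99 ± 0.24 on the log2 scale (95% interval 0.46 to 1.51). It did not pass the limma test after adjustment (adjusted p = 0.134, unadjusted 0.00145), and adjusted p-values reached 0.280 when single arrays were left out.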

How the results depend on the processing

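With knockout at room temperature, of the 1 member called higher, 0 remained called with only the arrays compared, with a replicate block, with the muscle score, with the array of conflicting label moved or with all probe sets. It was 2 with dim probe sets left out, with trend and robust variance, or with the mean of all probe sets of a gene. The 1 called lower became 0 with the muscle score or the array moved. For cold in the controls, the 2 called higher became 0 with the array moved, and the 1 lower became 0 with only the arrays compared, the array moved or all probe sets. Leaving out single arrays gave 0 to 1 higher and 0 to 1 lower at room temperature, and 2 higher and 2 lower at 4 °C. For cold it gave 2 higher and 0 to 1 lower in the controls, 2 to 3 higher and 1 lower in the knockouts, and 0 for the interaction. Where no cause is plain from the setting, the cause was not tested. Of 765 refits of single members, 31 lost a call, 10 gained one and 0 turned the sign of a called value.

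Arrays with the same replicate number did not deviate together. Of 18 pairs 2 correlated over 0.1 (range -0.18 to 0.16), and 4 of 12 arrays were most like those of their own number. With the replicate block the room temperature call of Acot6 was lost (adjusted p = 0.0547), and Acot3 passed with knockout at 4 °C (adjusted p = 0.0367) and with cold in the knockouts (0.0144). The latter also passed with array weights (0.041), median centring (0.0309) or dim probe sets left out (0.0377), and without knockout replicate 1 at 4 °C (0.033).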
